A study of Mus musculus with 8 samples.

Results

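Bidirectional protein-coding promoters were taken as pairs of protein-coding genes on opposite strands of chromosomes 1 to 19 that point away from each other, with annotated starts no more than 1000 bp apart. GENCODE vM21, an annotation of the GRCm38 (mm10) mouse genome, held 734 such pairs. They contained 1448 of 20807 autosomal protein-coding genes, or 6.96%. The 2 starts of a pair lay 1 to 987 bp apart, with a median of 128 bp and quartiles of 66.25 and 240 bp. The stretch between the starts is called the interval, and a pair is written with its reverse-strand gene first. Each start was the outermost one annotated for its gene. A gene could enter more than 1 pair, and 40 pairs shared a gene with another. The other 19359 genes are called one-way promoters, and each was represented by its start and the 128 bp upstream of it.

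ATAC-seq, which marks open chromatin by where a loaded transposase can reach the DNA, was run on pachytene spermatocytes of mice, the male germ cells in the stage of meiosis at which homologous chromosomes are fully paired. There were 4 *Arid1a* WT and 4 *Arid1a* cKO libraries, and the ARID1A protein binds DNA as part of the BAF complex, a remodeler of the SWI/SNF family. The cKO males were *Arid1a* fl/fl with a *Stra8-Cre* transgene, which is active in spermatogonia from early postnatal life. The controls, called WT, were *Arid1a* fl/fl or *Arid1a* fl/+ males given without the transgene, so neither group was free of the floxed allele. The floxed line was kept on a CD1 background, and the background of the *Stra8-Cre* line crossed to it is not stated. Cells were purified by sedimentation from pooled testes of adult males and cryopreserved, and nothing in the labels says that the libraries of a group came from separate animals. Excision was incomplete in the cKO, so its libraries mix cells with and without ARID1A.

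Each genotype was given as 1 peak list, an intersection of its libraries, so the spread between replicates is not known and no test was made. Intervals given with shares and medians are 95% intervals that cover counting error only. The WT list held 19309 peaks and the cKO list 30244. Promoters of 7 of 8 pachytene markers had a peak in both lists. Of markers of other testis cells, 0 of 4 for spermatids, 0 of 5 for spermatogonia, 1 of 5 for Sertoli cells and 1 of 5 for Leydig cells had a WT peak, and the cKO list added spermatid *Prm2* and spermatogonial *Zbtb16* and *Kit*. The start of *Arid1a* lay in no pair and had a peak in both lists, which does not show whether the floxed segment was excised.

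At a bidirectional promoter, a single nucleosome-poor region serves 2 genes that are transcribed away from each other. Such promoters are typically rich in CpG and in SP, NF-Y and ETS motifs, poor in TATA boxes, and common among DNA repair and housekeeping genes. Both genes of a pair therefore lie close to the same open chromatin, which makes the position of a peak relative to the 2 starts informative.

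The intervals of 6 pairs are printed on the forward strand of GRCm38 (mm10), from the reverse-strand start to the forward-strand start. Capitals mark matches, on either strand, to any of 8 motifs, those of SP/KLF, NF-Y, ETS/GABP, NRF1, YY1, CRE-binding and MYB factors and the TATA box, whose letters are given with their shares further on. Matches that share bases were all marked. *B3galt6*/*Sdf4* (chr4:155992649-155992872) is shown because its WT peak had the highest fold of all pairs. *Rnf151*/*Rps2* (chr17:24718063-24718116) had the strongest peak of the pairs with one in cKO alone, though the highest point of that peak was placed outside the interval. *Nudt22*/*Trpt1* (chr19:6996117-6996131) had the shortest interval among pairs without a peak in either list. *Xrcc3*/*Zfyve21* (chr12:111813873-111814170), *Aimp2*/*Pms2* (chr5:143909847-143909964) and *Gen1*/*Smc6* (chr12:11265801-11265886) had high WT fold among pairs of the DNA repair list.
B3galt6/Sdf4: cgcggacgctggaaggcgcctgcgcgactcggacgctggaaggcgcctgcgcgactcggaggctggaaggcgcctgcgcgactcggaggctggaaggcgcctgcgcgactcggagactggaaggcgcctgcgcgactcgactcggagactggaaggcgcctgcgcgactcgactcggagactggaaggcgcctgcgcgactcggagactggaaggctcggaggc
Rnf151/Rps2: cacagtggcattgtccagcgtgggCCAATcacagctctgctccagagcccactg
Nudt22/Trpt1: cgcccctttctttcc
Xrcc3/Zfyve21: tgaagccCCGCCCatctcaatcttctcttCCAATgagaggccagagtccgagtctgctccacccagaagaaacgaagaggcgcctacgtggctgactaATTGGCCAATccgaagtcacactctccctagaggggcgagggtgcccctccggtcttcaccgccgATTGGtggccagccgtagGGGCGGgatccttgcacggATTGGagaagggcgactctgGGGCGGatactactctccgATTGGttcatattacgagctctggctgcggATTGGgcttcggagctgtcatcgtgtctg
Aimp2/Pms2: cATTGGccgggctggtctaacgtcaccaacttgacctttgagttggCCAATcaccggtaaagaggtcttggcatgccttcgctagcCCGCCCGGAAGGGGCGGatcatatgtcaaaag
Gen1/Smc6: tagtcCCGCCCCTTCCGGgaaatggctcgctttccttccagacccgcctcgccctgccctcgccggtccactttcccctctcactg

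The *B3galt6*/*Sdf4* interval is a tandem repeat with none of these motifs. Its 20-mer ctggaaggcgcctgcgcgac occurred 7 times, it contained 35 CpG in 224 bp, and 80.8% of the 50-mers of the interval and its surroundings occurred once in the genome. The *Xrcc3*/*Zfyve21* interval held 7 matches to the NF-Y motif and 3 to the SP/KLF motif. The *Aimp2*/*Pms2* interval held 2 of each and 1 match to the ETS motif, and the *Gen1*/*Smc6* interval held 1 SP/KLF and 1 ETS match. Only 1 motif match, of NF-Y, lay in the *Rnf151*/*Rps2* interval, which is CpG-poor with 1 CpG in 54 bp.

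Nearly all bidirectional promoters lay under a peak in both genotypes. A WT peak overlapped the interval of 660 of 734 pairs, or 89.9% (87.5 to 91.9), against 40.2% of one-way promoters. In the cKO list, 681 pairs, or 92.8% (90.7 to 94.4), had a peak, against 46.9% of one-way promoters. The odds of a peak were 13.3 times as high at pairs as at one-way promoters in WT (10.4 to 16.9) and 14.5 times in cKO (11.0 to 19.2). On 19 of 19 autosomes the pairs had the larger share in both lists. The pairs' lowest share on any chromosome was 73.0% in WT, and the one-way promoters' highest was 48.6%.

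The size of this difference depended on which promoters served as the comparison. One-way promoters with an annotated noncoding start within 1000 bp upstream on the other strand had a peak more often than the rest, at 69.8% of 860 in WT (66.6 to 72.7) and 75.8% in cKO (72.8 to 78.6), against 38.8% and 45.6% of the one-way promoters without one. Against that group alone the odds ratio of the pairs was 3.86 in WT (2.92 to 5.12) and 4.10 in cKO (2.98 to 5.65). The 1128 olfactory receptor genes, a family used in sensory neurons, held no pair and no promoter peak in either list. Without them 42.7% of one-way promoters had a peak in WT and 49.9% in cKO.

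Pairs were also much richer in CpG, the dinucleotide whose density marks CpG-island promoters. In the 300 bp at the middle of the interval, the median ratio of observed to expected CpG was 0.852 (0.833 to 0.870), against 0.522 (0.512 to 0.534) in the 300 bp at the middle of the one-way windows, and median GC content was 62.5% against 56%. When all promoters were divided into 5 bins of equal size by this ratio, 46.5% of pairs fell in the highest bin, against 19.03% of one-way promoters. Within that bin, 96.2% of pairs (93.6 to 97.8) and 81.1% of one-way promoters (79.8 to 82.3) had a WT peak. In the middle bin the shares were 81.9% (73.5 to 88.1) and 41.6% (40.1 to 43.2). The 2 lowest bins held 12 and 33 pairs, of which 1 and 18 had a WT peak. With the bins combined, the odds ratio was 6.12 in WT (4.58 to 8.18) and 6.06 in cKO (4.34 to 8.48). CpG content thus moved with the difference, and its part in it was not tested.

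**Figure D1:**
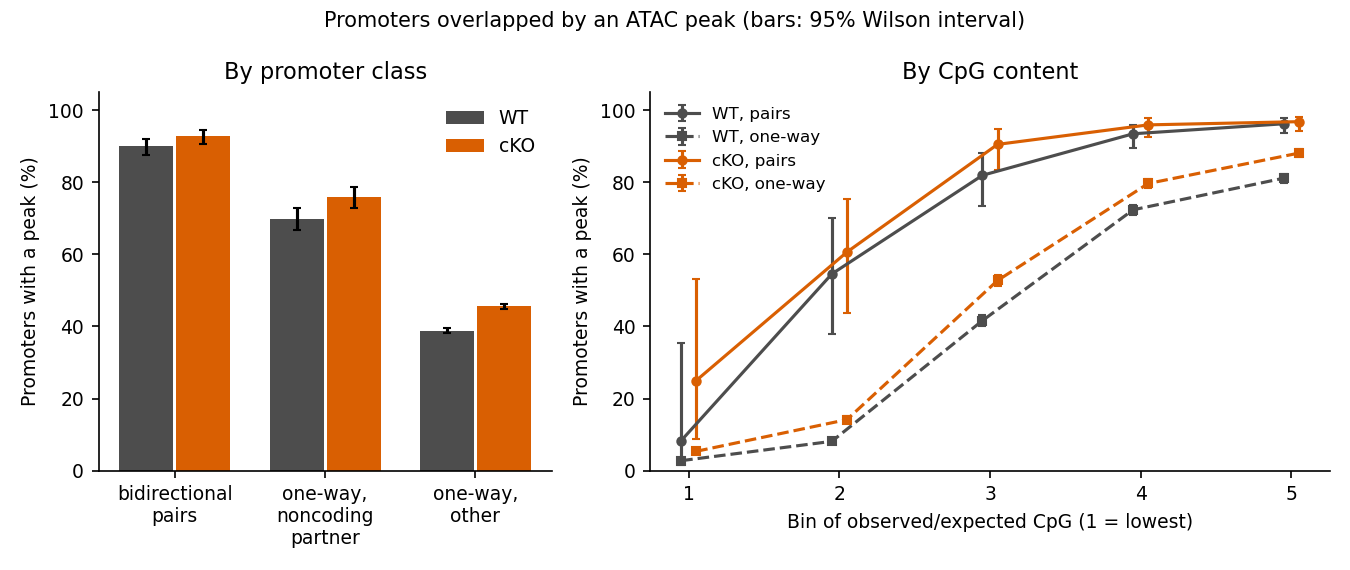
Left, percent of promoters with an ATAC peak (y axis) for bidirectional pairs, one-way promoters with a divergent noncoding start and the other one-way promoters, in WT (grey) and cKO (orange). Right, the same percent for pairs (solid lines) and one-way promoters (dashed lines) in 5 bins of observed over expected CpG. Error bars are 95% Wilson intervals. Pairs lie above one-way promoters in every bin, with wide intervals in the 2 lowest.

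Peaks over pairs were also stronger than other promoter peaks of the same list. Fold enrichment, the authors' linear ratio of fragment pileup at the summit to the constant background of 1 library, was compared only within a list. Its median was 11.6 (11.1 to 12.2) over the 641 distinct WT peaks on pair intervals and 8.63 (8.44 to 8.82) over the 7325 on one-way promoters alone, a ratio of 1.35. In cKO it was 18.3 (17.5 to 18.98) over 662 peaks and 12.3 (11.9 to 12.4) over 8526, a ratio of 1.49. The pairs had the higher median on 19 of 19 autosomes in both lists. Of the pair peaks, 21.1% in WT (18.1 to 24.4) and 22.5% in cKO (19.5 to 25.8) belonged to the top 10% of promoter peaks by fold, against 9.47% and 9.22% of one-way peaks. Against one-way promoters with a divergent noncoding start, the fold ratio was 1.23 in WT and 1.27 in cKO.

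The peaks over pairs were wider as well, but not at equal fold. Median width was 1234 bp (1194 to 1293) over pairs and 1067 bp (1053 to 1085) over one-way promoters in WT, and 1710 bp (1649 to 1767) and 1472 bp (1457 to 1493) in cKO, a ratio of 1.16 in each list. The pairs had the higher median on 17 of 19 autosomes in WT and on 19 of 19 in cKO. Width rose with fold in both classes, from 603.5 bp in the lowest of 5 fold bins to 1600 bp in the highest for WT one-way peaks. Within fold bins the ratio of medians lay between 0.938 and 1.08 in WT and between 0.962 and 1.09 in cKO, and its mean over the bins was 1.006 and 0.9995. Against one-way promoters with a divergent noncoding start the width ratio was 1.08 in WT (0.995 to 1.17) and 1.07 in cKO (0.993 to 1.18), so that a ratio of 1 lay within the counting error. These fold bins were added after the widths had been seen.

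**Figure D2:**
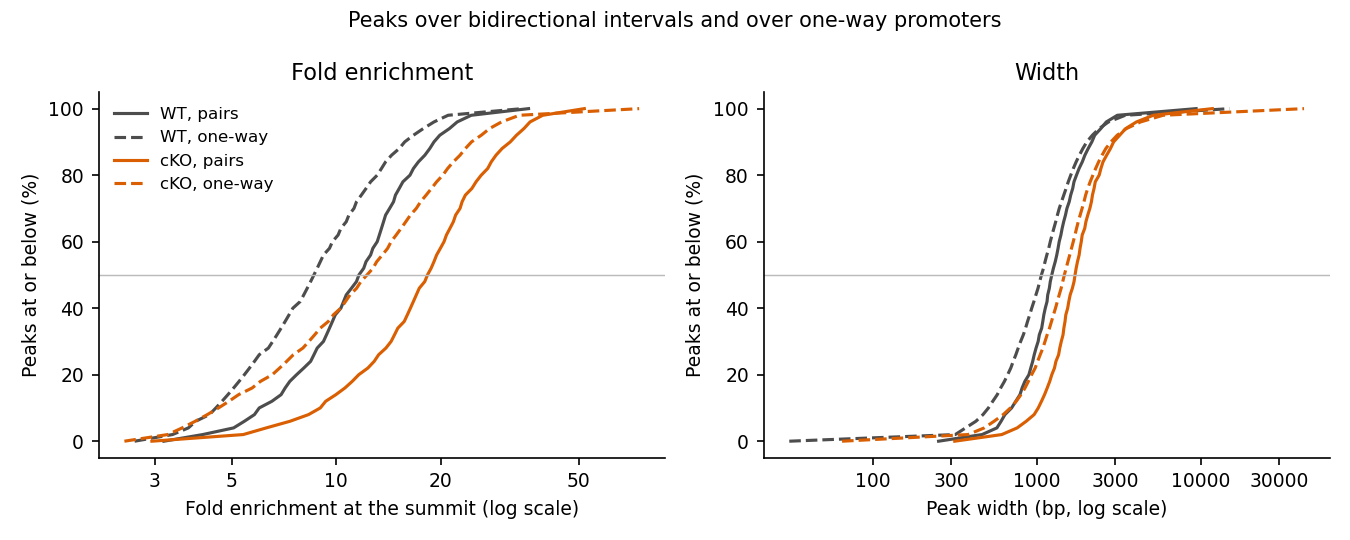
Cumulative distributions of fold enrichment (left) and peak width in bp (right), both on log axes, for distinct peaks over bidirectional intervals (solid lines) and over one-way promoters alone (dashed lines) in WT (grey) and cKO (orange). The y axis is the percent of peaks at or below the value and the horizontal line marks the median. The solid lines lie to the right of the dashed lines of the same list, with fold medians of 11.6 against 8.63 in WT and 18.3 against 12.3 in cKO.

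A single peak nearly always covered the interval whole, and no pair had more than 1 peak. Both starts lay inside the same peak in 632 of 660 pairs in WT, or 95.8% (93.9 to 97.05), and in 664 of 681 in cKO, or 97.5% (96.0 to 98.4). One-way windows of the median interval length with a peak lay whole in 1 peak in 85.4% (84.6 to 86.1) in WT and 91.2% (90.6 to 91.7) in cKO, so enclosure was common in both classes. In the enclosed pairs the WT peak ran a median of 524 bp (486 to 558) into the reverse-strand gene and 514.5 bp (492 to 538) into the forward-strand gene. The longer side lay in the forward-strand gene in 316 of 632. In cKO the medians were 739 bp (712 to 766) and 748 bp (723 to 772), with the longer side in the forward-strand gene in 335 of 664. Which gene of a pair lies on the reverse strand is arbitrary, so these near-equal values cannot show whether peaks are balanced between the genes. Within a WT pair the longer side was typically 1.62 times the shorter one. Peaks at one-way promoters ran a median of 420 bp upstream and 612 bp downstream of the start in WT and 622 and 814 bp in cKO. Those sides are set by the direction of the gene, so they cannot be compared with the sides of a pair.

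**Figure D3:**
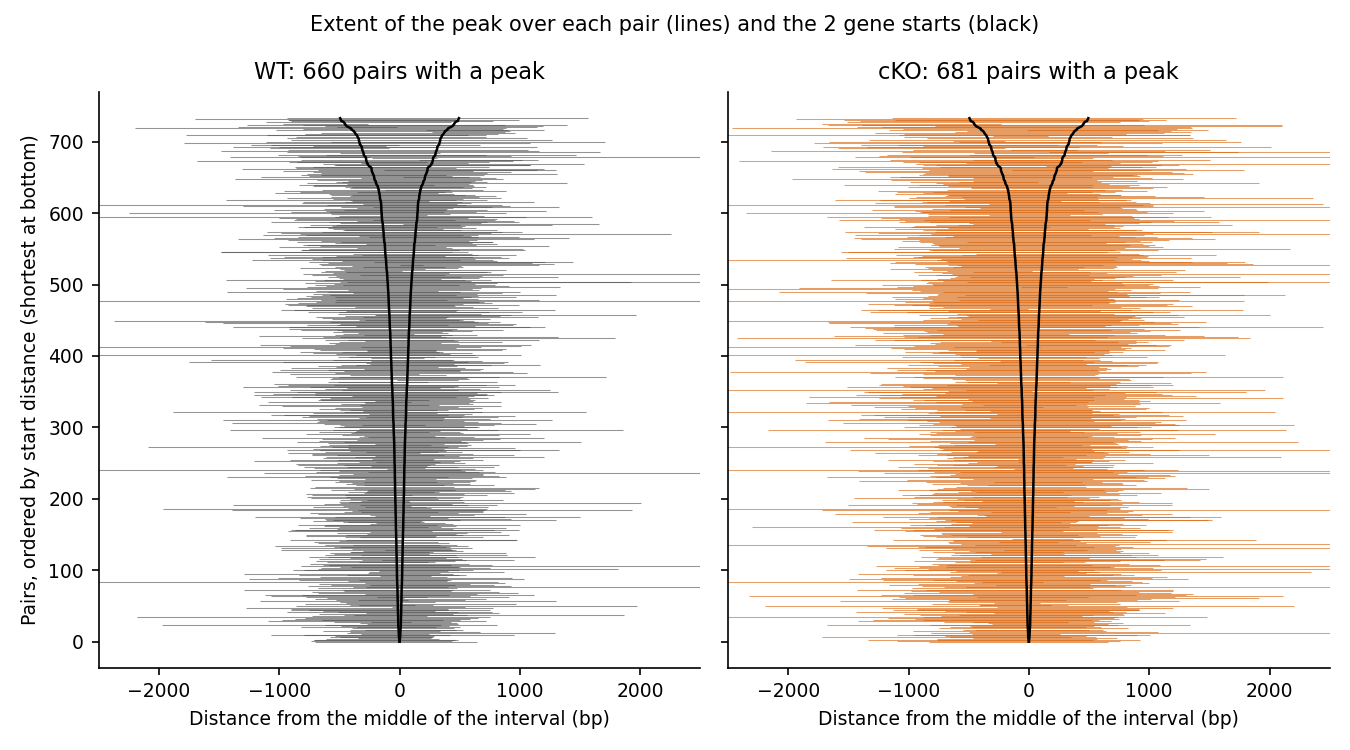
Extent of the peak over each pair in WT (grey, 660 pairs) and cKO (orange, 681 pairs), as horizontal lines against the distance in bp from the middle of the interval, with pairs ordered by start distance on the y axis. Black lines mark the 2 gene starts. Nearly all peaks enclose both starts and extend to either side, and 13 WT and 35 cKO peaks run past the plotted 2500 bp.

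The distance between the starts changed this picture. Of pairs with starts 1 to 100 bp apart, 91.5% had a WT peak (87.8 to 94.1), as did 90.2% of those above 100 and up to 300 bp, 93.8% of those up to 500 bp and 77.9% (66.7 to 86.2) of those up to 1000 bp. The share of WT-peak pairs with both starts in 1 peak was 99.3%, 97.8%, 93.3% and 69.8% in the same order. Median WT fold was 9.94 (9.38 to 10.5) in the closest pairs, 13.5 (12.8 to 13.9) in those up to 300 bp, 13.6 (9.57 to 15.8) up to 500 bp and 10.9 (8.82 to 14.8) up to 1000 bp. In cKO it was 16.4 (15.4 to 16.9), 21.3 (20.1 to 22.6), 19.6 (16.04 to 24.5) and 18.2 (13.6 to 20.9). The closest pairs thus had lower fold than pairs up to 300 bp apart by more than the counting error in both lists, and the wider bins overlapped both. At the limit itself, all 5 pairs just inside it (967 to 987 bp) and 3 of the 5 pairs just outside it (1009 to 1028 bp) had a peak in both lists.

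The summit, the position of highest pileup, lay between the starts in 46.1% of 657 WT pairs (42.3 to 49.9) and 46.6% of 680 cKO pairs (42.9 to 50.4). This share was 21.7% at 1 to 100 bp, where there is little room, and 60.7%, 78.3% and 64.2% in the 3 wider bins in WT. Summits outside the interval lay on the side of the reverse-strand gene in 161 WT pairs and on that of the forward-strand gene in 193. At one-way promoters the median WT summit lay 24 bp downstream of the start, and 41.9% were upstream. Summit positions were counted from the edge of the collapsed peak and may be off by an unknown amount, because the authors' intersection can trim that edge.

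**Figure D4:**
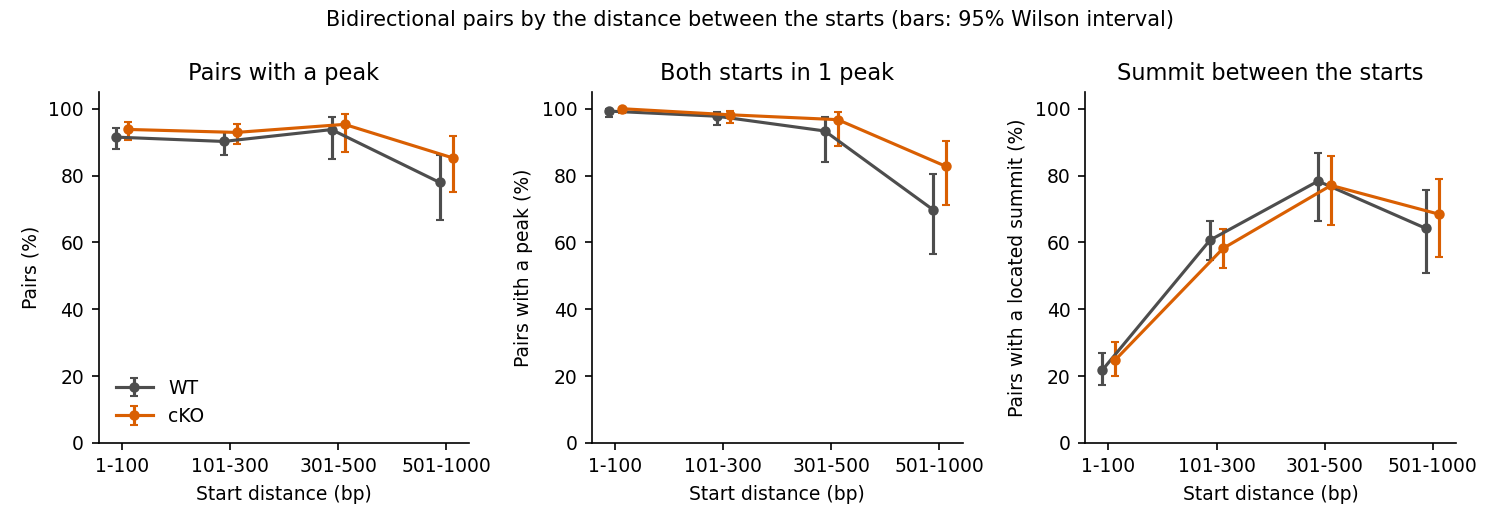
Percent of bidirectional pairs with a peak (left), of those with both starts in 1 peak (middle) and of those with the summit between the starts (right), by start distance in bp, in WT (grey) and cKO (orange). Error bars are 95% Wilson intervals. Pairs with starts more than 500 bp apart have a peak less often and are enclosed by 1 peak less often, at 69.8% in WT and 82.8% in cKO.

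Most of the promoter motifs searched were more frequent at pair genes than at one-way genes. Each gene was scored for a match on either strand in the 300 bp from 250 bp before its start to 50 bp after it, and paired genes share much of this sequence. At the median start distance of 128 bp, the window of a pair gene also holds the start of its partner. GGGCGG, the box bound by SP and KLF factors, occurred in 68.9% of 1448 pair genes and 41.8% of 19359 one-way genes. CCGGAAG, the core bound by ETS factors such as GABP, occurred in 27.6% and 9.78%. GCATGCGC (NRF1) was found in 6.91% and 3.19%, AAGATGG (YY1) in 10.2% and 5.95%, and TGACGTCA (CRE) in 4.63% and 2.26%. CCAAT, bound by NF-Y, occurred in 43.6% and 38.2%, and AACNGTT, bound by MYB proteins, in 3.94% (3.05 to 5.07) and 3.73% (3.48 to 4.01), which overlapped. TATAAA alone was rarer at pair genes, at 4.14% (3.23 to 5.30) against 13.4% (12.9 to 13.9).

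Pairs with the NF-Y or the SP/KLF motif in the 300 bp at the middle of the interval had the stronger peaks. For NF-Y, median WT fold was 13.5 (12.8 to 14.1) in 296 such pairs and 10.3 (9.76 to 10.7) in 364 without it, and median cKO fold was 21.9 (20.1 to 22.9) and 16.7 (15.9 to 17.3). The ratio of these medians was 1.31 in both lists. One-way promoters with a peak showed the same direction, with ratios of 1.18 in WT and 1.29 in cKO. Among pairs with starts above 100 and up to 300 bp apart the WT medians were 14.3 (13.7 to 15.2) with and 12.2 (10.5 to 13.1) without it, and among closer pairs they were 11.7 (9.94 to 12.8) and 9.47 (9.005 to 10.1), whose intervals overlapped. For SP/KLF the WT fold was 12.4 (11.8 to 13.1) with and 9.85 (9.19 to 10.7) without the motif, and the cKO fold 19.3 (18.7 to 20.5) and 15.7 (14.6 to 16.7). It differed among the closest pairs as well, at 10.5 (9.94 to 11.4) and 9.005 (8.44 to 9.57) in WT. Among pairs above 100 and up to 300 bp apart the WT medians were 13.8 (13.3 to 14.6) and 11.8 (10.3 to 13.5). Those intervals overlapped, as they did in cKO. The SP/KLF ratio was 1.26 in WT and 1.23 in cKO over all pairs, and 1.17 and 1.24 at one-way promoters. With the ETS motif the WT fold over all pairs was 11.2 (9.94 to 12.2), against 11.9 (11.1 to 12.6) without it, within the counting error. Among the closest pairs the cKO fold was lower with it, at 14.9 (13.6 to 16.04) against 17.2 (16.4 to 18.3), and at one-way promoters it was higher, at 13.6 (13.3 to 14.1) against 12.1 (11.9 to 12.4). Of 33 pairs with the TATA motif, 26 had a WT peak, or 78.8%, against 90.4% of the others.

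*Nfya*/*Oard1* and *Cdca2*/*Kctd9* were among the 5 pairs of highest fold in both lists. *B3galt6*/*Sdf4*, a galactosyltransferase of proteoglycan linkers and a calcium-binding protein of the Golgi, had a WT fold of 35.8 in a peak of 2194 bp and a cKO fold of 44.2. *Nfya*/*Oard1* on chromosome 17 followed with 33.4 in WT and led the cKO list with 51.9. *Nfya* encodes a subunit of the CCAAT-binding factor NF-Y, and *Oard1* an ADP-ribose hydrolase. *Mphosph9*/*2810006K23Rik* (29.5), *Cdca2*/*Kctd9* (28.1) and *Asb7*/*Lins1* (27.6) completed the first 5 in WT. In cKO *Cdca2*/*Kctd9* (48.1), *Pcsk4*/*Reep6* (47.8), *Cep57*/*Fam76b* (46.8) and *Hdlbp*/*Sept2* (45.8) followed *Nfya*/*Oard1*. *Pcsk4* encodes a proprotein convertase of spermatids and sperm, and *Cep57* a centrosomal protein. The name *Hdlbp*/*Sept2* stands for 2 rows of the annotation.

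The widest peaks over pairs ran to several kilobases. In WT they were at *Nubp2*/*Spsb3* (9352 bp), *Ssna1*/*Anapc2* (6937 bp), *E4f1*/*Pgp* (6821 bp), *Exoc8*/*Sprtn* (5416 bp) and *Acd*/*Pard6a* (4848 bp), with start distances of 40 to 294 bp, although median width was larger over the most distant starts, at 1679 bp above 500 bp against 1103.5 bp in the closest WT pairs. *Anapc2* encodes a core subunit of the anaphase-promoting complex, *Sprtn* a DNA-protein crosslink protease and *Acd* a shelterin subunit of telomeres. In cKO they were at *Exoc8*/*Sprtn* (11746 bp), *Mob3a*/*Izumo4* (9197 bp), *Ssna1*/*Anapc2* (8224 bp), *Hsdl1*/*Dnaaf1* (7512 bp) and *Crat*/*Ptpa* (7176 bp). The peak over *Nubp2*/*Spsb3* was 3192 bp in the cKO list, so the width of a single pair differed between the lists in either direction.

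Many DNA repair genes belonged to pairs. Of the autosomal genes on the DNA repair list, 33 belonged to a pair, or 32.4% of the list, against 6.96% of all protein-coding genes. They formed 34 pairs, of which 32 had a peak in both lists, a share close to that of all pairs (89.9% in WT and 92.8% in cKO). *Mcm4*/*Prkdc* had a WT fold of 20.1 and a cKO fold of 29.1, joining a subunit of the replicative helicase to the catalytic subunit of DNA-PK. *Xrcc3*/*Zfyve21* had 18.8 in WT and 33.7 in cKO, and *Aimp2*/*Pms2* 18.8 and 28.5. *Xrcc3* encodes a homologous recombination protein, and *Pms2* a mismatch repair protein. *Gen1*/*Smc6*, a Holliday junction resolvase and a subunit of the SMC5/6 complex, had 17.4 and 31.7, and *Brca1*/*Nbr1* had 16.5 and 26.7.

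The weakest peaks over repair pairs were at *Emc3*/*Fancd2*, with a WT fold of 4.88, and *Tsc2*/*Nthl1*, with 5.25. *Pinlyp*/*Xrcc1* and *1300017J02Rik*/*Topbp1* had no peak over the interval in either list. The annotated start used for *Xrcc1*, a scaffold of single-strand break repair, lay in sequence with an observed over expected CpG of 0.106. Another annotated coding start of that pair was inside a peak in both lists, and the nearest WT peak was 64 bp from the interval. *Topbp1*, an activator of the checkpoint kinase ATR, had a CpG-rich interval (1.03), and the nearest peak was 102823 bp away in WT and 102849 bp in cKO. It lay in a stretch of 279592 bp without any peak, which held 2 other promoters in the 2 highest CpG bins. A missing peak there is not given as closed chromatin.

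The other gene lists held fewer pairs. Of 54 autosomal genes on the meiosis list 7 belonged to a pair, and all 8 of their pairs had a peak in both lists, too few to be told from the share of all pairs. *Ccnb1ip1*/*Parp2* had the highest WT fold, 13.1, joining a crossover-designation protein (HEI10) to a poly(ADP-ribose) polymerase, and 17.3 in cKO. *Gpc2*/*Stag3* had 11.3 in WT and 22.7 in cKO, and *Stag3* encodes a meiotic cohesin subunit. *Trip13*/*Brd9* had 8.82 and 16.9, and *Patl2*/*Terb2*, with a protein that anchors meiotic telomeres to the nuclear envelope, 6.94 and 11.1. The lowest, *Aspa*/*Spata22*, had 4.88 and 7.36. *Trip13* encodes an ATPase that removes HORMA proteins from paired chromosomes, and *Brd9* a subunit of the non-canonical BAF complex. Among 31 genes of SWI/SNF subunits, *Brd9* and *Ss18l1* were in pairs, and *Psma7*/*Ss18l1* had no peak in either list. That pair lay in a stretch of 80208 bp without any peak, where a missing peak is not given as closed chromatin. The 7 pairs with a DNA replication gene, likewise few, all had a peak in both lists, with a WT fold from 7.50 at *Orc3*/*Rars2* to 20.1 at *Mcm4*/*Prkdc*.

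Of the 12 pairs long used as examples of bidirectional promoters, 11 had a peak in both lists, each enclosing both starts. This is close to the share of all pairs, 89.9% in WT and 92.8% in cKO. Over all pairs with a WT peak, 95.8% were enclosed. Most of the 12 also hold a DNA repair gene and were already counted among the repair pairs. The lowest WT fold among the 11 was 8.82, at *Psmb1*/*Tbp*, a proteasome subunit and the TATA-binding protein. *Gart*/*Son* had 21.8, *Atm*/*Npat* 14.8 and *Xpc*/*Lsm3* 12.8. The exception was *Col4a4*/*Col4a3*, collagen genes of basement membranes, which had no peak in either list. Among gene families by symbol, 12 of 49 Mrpl, 6 of 29 Mrps, 9 of 22 Ndufa and 9 of 29 Polr genes were in pairs, and each of these pairs had a peak in both lists, against 660 of 734 pairs in all. These families encode mitochondrial ribosomal proteins, subunits of respiratory complex I and subunits of RNA polymerases. Not every family was like these. Of the Ndufs genes, also of complex I, 0 of 8 belonged to a pair. Of the Snrp genes 1 of 12 did, or 8.33%, against 6.96% of all coding genes. A WT peak lay over 5 of 7 Psm pairs (proteasome). The pairs of *Psma7* and *Psmc5* lacked one and lay in stretches of 80208 and 83460 bp without any peak, so they are not given as closed. Of Zfp pairs (zinc fingers) 17 of 19 had a WT peak, close to the 89.9% of all pairs. The Ndufs, Snrp and Psm counts are too few to be told from all genes or all pairs.

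Histone genes were the symbol family with the most paired members of those counted, and most of their pairs lacked a peak. Of 67 Hist genes 27 belonged to 14 pairs, 13 of which joined 2 histone genes. Only 6 of the 14 had a peak, the same number in both lists. *Hist1h2ba*/*Hist1h2aa*, the testis-specific H2B and H2A pair (TH2B and TH2A), stood highest with a WT fold of 15.4 in a peak of 4654 bp and a cKO fold of 26.2. The other 5 had a WT fold from 5.07 at *Hist1h2bl*/*Hist1h2ai* to 9.76 at *Hist1h2bf*/*Hist1h2ad*. Of the 8 without a peak, *Hist1h2bq*/*Hist1h2ao* and *Hist1h2ap*/*Hist1h2br* lay in sequence where 0% of 50-mers occurred once in the genome, so that reads there have no unique position. These and 4 others of the 8 lay in 2 long stretches without any peak, of 126391 bp on chromosome 13 and 219473 bp on chromosome 3, where a missing peak is not given as closed chromatin. The nearest WT peak was 241 bp from *Hist1h2bh*/*Hist1h3f* and 2316 bp from *Hist1h2ae*/*Hist1h2bg*, the remaining pairs.

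In all, 53 pairs had no peak in either list. Their median observed over expected CpG was 0.559, against 0.865 in the 660 pairs with a peak in both, and 20 of the 53 were below 0.3. Among these were *Pecam1*/*Milr1* (0.164), with an endothelial adhesion molecule, and *Smyd1*/*Cd8b1* (0.197), with a methyltransferase of striated muscle and a coreceptor of T cells. Those with short intervals included *Nudt22*/*Trpt1*, *Hjurp*/*Trpm8* and *Pdxdc1*/*Mpv17l*, with starts 14, 28 and 30 bp apart. In 9 of the 53 another annotated coding start of 1 of the genes lay in a WT peak, and in 13 in a cKO peak.

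Of the 53 pairs, 18 were CpG-rich, with a ratio of at least 0.75, among them *Hjurp*/*Trpm8* and *Pdxdc1*/*Mpv17l* named above. Several of the 18 hold genes that all cells use. *Alyref* encodes an mRNA export factor, *Anapc11* a subunit of the anaphase-promoting complex, *Psma7* and *Psmc5* proteasome subunits and *Ftsj3* a ribosome biogenesis factor. Of the 18 pairs, 17 lay in a stretch of at least 50000 bp without any peak of either list, with a median length of 126391 bp over the 18. For 12 of them the stretch held at least 1 other promoter in the 2 highest CpG bins. The stretch around *Alyref*/*Anapc11* was 140572 bp long and held 6 others. A stretch counts both sides and both lists, so its length cannot be set against the distance to a nearest peak. On that other measure, the next WT peak beside a pair with a WT peak was at a median of 20379 bp. For the 53 pairs without a peak, the median distance to the nearest WT peak was 38516 bp. Over all autosomes only 10 of 29285 peak-free stretches held 4 or more such promoters. A missing peak in these stretches was therefore counted but is not given as closed chromatin, and why the stretches were empty was not tested.

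Pairs that had a peak in WT kept one in cKO. In 0 of 660 was the peak missing from the cKO list, which allows a share of up to 0.579% (Wilson), against 0.784% of one-way promoters with a WT peak. The one-way share fell with CpG, from 4.50% in the lowest bin to 0.477% and 0.201% in the 2 highest. Most pairs lay in those 2 bins, so the pairs cannot be told from one-way promoters of like CpG. Of the 74 pairs without a WT peak, 21 had a cKO peak, or 28.4% (19.4 to 39.5), against 11.8% of such one-way promoters. This order depended on the base. Of all promoters, 2.86% of pairs and 7.08% of one-way promoters had a peak in cKO alone. In the highest CpG bin a cKO peak was found at 15.4% of 13 pairs without a WT peak (4.33 to 42.2). The share of such one-way promoters was 37.6% (34.1 to 41.3), which overlapped. Pairs had the higher share in every other bin. In the lowest bin it was 18.2% (5.14 to 47.7) against 2.8% (2.32 to 3.36). In the middle bin it was 47.4% (27.3 to 68.3) against 20.2% (18.6 to 21.9). In the remaining bins, at 13.3% against 6.86% and 37.5% against 27.6%, the intervals overlapped. The cKO list was longer. When it was cut to the length of the WT list by its strongest peaks, 12 pairs had a peak in cKO alone and 1 in WT alone. Library depth and genotype cannot be told apart in these counts.

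The peaks found over pairs in cKO alone were weak. Their fold ran from 2.95 to 24.2 with a median of 4.58 (3.44 to 6.38), against 4.75 (4.58 to 4.91) for the 1371 one-way promoters of the same kind. *Rnf151*/*Rps2* was far above the rest at 24.2, in a peak of 3656 bp that ran 3067 bp into *Rps2*, the gene of a small ribosomal subunit protein. The summit of that peak was placed at 24720061, beyond the *Rps2* start at 24718116. As far as summits could be placed, its fold is therefore not that of a site between the starts. That peak also overlapped a WT peak with a fold of 14.4, and the nearest WT peak was 803 bp from the interval. *Nt5c3b*/*Klhl10* (7.69), *Plcd3*/*Acbd4* (7.36) and *Sox6*/*1110004F10Rik* (6.87) likewise had a cKO peak that overlapped a WT peak beside the interval, 582, 63 and 161 bp away. Their cKO summits too were placed outside the intervals. *Klhl10* encodes a ubiquitin ligase adaptor of spermatids. For *Sec24a*/*Sar1b* (6.55), 2 genes of COPII vesicle coat assembly, the nearest WT peak was 6652 bp away. In all, 6 of the 21 cKO peaks overlapped a WT peak, or 28.6% (13.8 to 49.96), against 40.3% (37.8 to 43.0) at one-way promoters.

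Fold was compared between the lists by percentile. Each peak was given its percentile of fold among the promoter peaks of its own list. The cKO list held more of these, with 8526 peaks over one-way promoters alone against 7325 in WT. The 1371 one-way promoters with a cKO peak and no WT peak had a median cKO fold of 4.75. The median percentile of the 660 pairs was 70.7 in WT and 73.8 in cKO. It was higher in cKO in 451 and lower in 209, and in 457 it differed by no more than 10 points. One-way promoters with a peak in both lists moved in the same direction, with 71.7% (70.7 to 72.7) higher in cKO against 68.3% (64.7 to 71.8) of pairs. When percentiles were taken among the promoters with a peak in both lists, the same promoters on each side, the median of the pairs was 69.5 (65.8 to 72.9) in WT and 68.7 (66.4 to 71.2) in cKO. On that basis 349 pairs were higher in cKO and 310 lower, with a median change of 0.49 points (-0.15 to 1.10), so the rise seen with the full lists was no longer present. Single pairs still moved, from -35.2 to 36.9 points. Pearson's r of log2 fold between the lists was 0.939 over the 660 pairs, all measured on 1 library per list.

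With the full lists, the largest rises in percentile were at *Fbxo9*/*Ick* (22.1 to 64.5), *Dhrs1*/*Nop9* (32.5 to 65.9), *Cbln3*/*Khnyn* (1.02 to 32.8), *Sart3*/*Iscu* (53.2 to 83.2) and *Rgs9bp*/*Ankrd27* (23.9 to 53.9). *Sart3* encodes a recycling factor of spliceosomal snRNPs and *Iscu* the scaffold of iron-sulfur cluster assembly. The largest falls were at *Lrrc46*/*Mrpl10* (75.9 to 48.8), *Mmachc*/*Ccdc163* (57.6 to 31.2), *Zcrb1*/*Pphln1* (54.7 to 28.6), *Pqlc2*/*Akr7a5* (67.1 to 42.7) and *Fam210a*/*Rnmt* (79.5 to 56.1). Among the shared promoters these 5 also fell most, by 30.3 to 35.2 points, and *Fbxo9*/*Ick*, *Dhrs1*/*Nop9* and *Sart3*/*Iscu* rose most, by 36.9, 28.3 and 27.97 points. *Rgs9bp*/*Ankrd27* then rose by 23.1 and *Cbln3*/*Khnyn* by 21.97 points. None of these changes has a replicate error.

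**Figure D5:**
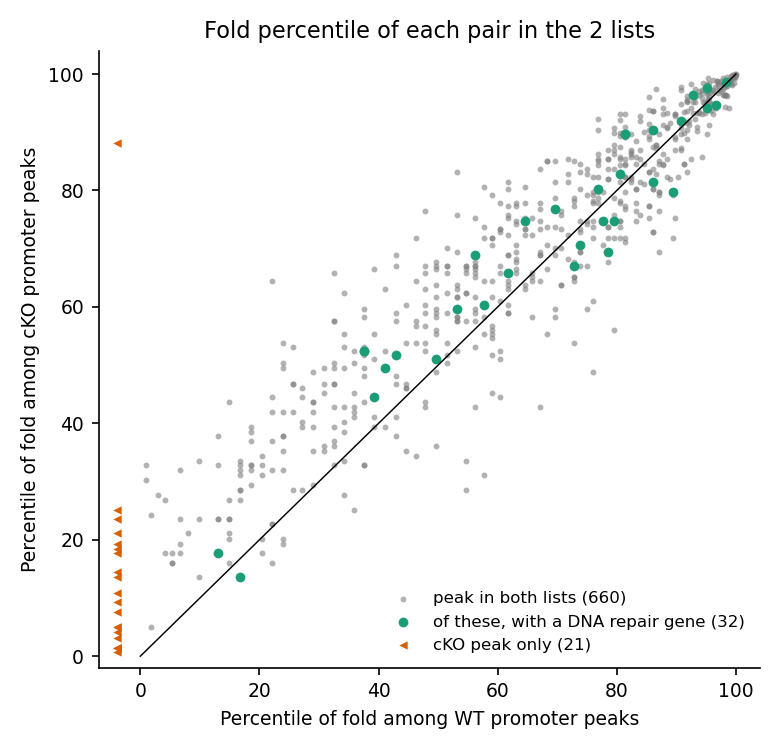
Percentile of fold enrichment of each bidirectional pair among the promoter peaks of the WT list (x axis) and of the cKO list (y axis). Grey points are the 660 pairs with a peak in both lists, green points the 32 of these with a DNA repair gene, and orange triangles at the left the 21 pairs with a peak in cKO alone. The line marks equal percentiles, and 451 pairs lie above it. Percentiles are within lists of unequal length, and among shared promoters the pairs split into 349 higher and 310 lower in cKO.

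Peaks were wider in the cKO list at nearly every pair. The cKO peak was the wider one in 631 of 660, or 95.6% (93.8 to 96.9), and so it was at 95.3% of one-way promoters with a peak in both lists. The median ratio of cKO to WT width was 1.36 (1.33 to 1.40) at pairs and 1.44 (1.43 to 1.45) at one-way promoters. The depth of the library that gave each list is unknown, so this ratio was compared only between promoter classes, and it was smaller at pairs. The classes were not matched for WT width or fold, whose medians were both higher over pairs, and whether this accounts for the difference was not tested.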

How the data were processed

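Omni-ATAC libraries from 4 *Arid1a* WT and 4 *Arid1a* cKO samples were grouped by their genotype labels. The authors trimmed reads, aligned them to mm10 with bowtie2, removed duplicates (Picard) and mitochondrial reads, called peaks in each library with MACS2 at a q of 0.05 without local background, and intersected the libraries of a genotype. The lists are named as blacklist-filtered. Trim Galore, Bowtie2, SAMtools, Picard, deepTools and MACS2 are named in the submitters' processing notes. No mapping quality filter is stated. The deposited values are fold enrichment (a linear ratio), −log10 q and a summit offset. All peak names of a list come from 1 unnamed library, whose depth is unknown.

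Rows that carry one peak name were joined (52419 WT and 84006 cKO rows), and an overlap was at least 1 bp. Genes and sequence came from GENCODE vM21 and GRCm38.p6, the build of mm10. All peaks lay inside the chromosomes, and 157 of 157 RefSeq promoter windows read identically. Shares carry Wilson intervals, medians order-statistic intervals and odds ratios intervals on the log scale, and combined odds ratios are Mantel-Haenszel. Mappability was the share of 50-mers, taken every 10 bp, that occur once in the genome. Python 3.11.15 with SciPy 1.17.1 and pandas 2.3.3 was used, and the functions were tested on simulated lists. No test was made, because each genotype has 1 list.

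The members and gene lists were chosen with earlier results of these data known. Named pairs are the 5 with the highest fold and the 5 widest peaks in each list, the 5 strongest by −log10 q with a peak in 1 list, the 5 shortest intervals without a peak, up to 6 of each gene list by WT fold with those lacking a peak, and the 5 largest changes of percentile each way. Pairs named as the weakest of a list, histone pairs and CpG-rich or CpG-poor pairs without a peak were chosen after their values were seen. Sequences were shown for the first of these with starts no more than 300 bp apart. Signal tracks were not analysed here. Some pairs that this rule names are not reported here.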

Additional observations from a re-analysis of the deposited data

How the results depend on the processing

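Of the alternative values, 144 stayed within the interval of the reported one, or within 1.5 times of a reported count, 26 moved and 2 crossed a ratio of 1. A −log10 q of at least 10 lowered the share of pairs with a WT peak to 86.8%, the WT width ratio to 1.09 and the fold ratios to 1.25 in WT and 1.38 in cKO, raised the share of cKO pairs enclosed by 1 peak to 98.5%, and raised the pairs with a cKO peak alone to 32 because it also shortened the WT list. With only the cKO peaks so filtered (added after seeing the data) there were 10. Equal list lengths gave 12 with a cKO peak alone and 1 with a WT peak alone, and use of all coding transcript starts (1066 pairs) gave 2 of the latter. With starts at most 500 bp apart the enclosed shares were 98.0% in WT and 98.9% in cKO, at most 300 bp apart 98.5% and 99.1%, and with at least 50% of the interval covered 97.2% in WT. Over CpG bins the odds ratios were 6.12 and 6.06, the WT fold ratio 1.22, and the width ratios 0.992 in WT and 1.33 in cKO. The lowest CpG bin held 1 WT and 3 cKO pair peaks, and over the bins with more than 20 pair peaks (added after seeing the data) the width ratios were 1.21 and 1.19 and the fold ratios 1.39 and 1.51. Fold bins (added after seeing the data) brought the width ratios to 1.006 and 0.9995. Against one-way promoters with a divergent noncoding start (added after seeing the data) the odds ratios were 3.86 and 4.10, the width ratios 1.08 and 1.07, and the fold ratios 1.23 and 1.27. Percentiles among shared promoters (added after seeing the data) rose from WT to cKO in 349 of 660 pairs, against 451 with the full lists. The cause of these shifts was not tested.

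No paired analysis was possible because each genotype has 1 list with no values per library, and for the same reason no library was left out. Depth is unknown, so a pair without a peak is one without a called peak at this depth.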
